A study of Homo sapiens with 8 samples.

Results

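The response of COLO829 cells to the BRAF inhibitor PLX4032 was described in the cells that carried a scrambled hairpin. COLO829 is an established human melanoma line with the BRAF V600E mutation, an amino acid change that keeps this kinase active. The members were chosen by label: the 2 arrays of scrambled hairpin cells given PLX4032 (vemurafenib, 1 µM for 24 h) minus the 2 arrays of scrambled hairpin cells given the solvent DMSO, which are 4 of the 8 arrays. Every gene was taken, with 1 probe set per gene, which gave 18404 genes. The other 4 arrays, used for the shared estimate of spread and for comparison, were of cells with a hairpin against the melanocyte master regulator MITF, again 2 with DMSO and 2 with PLX4032. All 4 groups had a pGIPZ hairpin vector and 2 days of puromycin selection before treatment, so the DMSO arrays are of selected, hairpin-carrying cells and not of untouched ones. They stand for a single line, a single dose and a single time. The labels give each group a replicate A and B and do not tell whether these came from separate cultures, so the p-values rest on a spread that may be technical.

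Mutant BRAF phosphorylates MEK, which phosphorylates the kinase ERK, and ERK switches on genes for growth together with the genes of its own inhibitors. PLX4032 binds the mutant kinase and lowers ERK activity in BRAF-mutant cells. In melanocytes and melanoma cells ERK signalling also bears on MITF, which drives pigment genes through short DNA motifs called E-boxes. Levels below are log2 intensities. Changes are PLX4032 minus DMSO on the log2 scale, so that 1 is a doubling, and are given ± SE from limma over all 8 arrays (n = 2 arrays per group). A gene is said to have risen, fallen or changed where its Benjamini-Hochberg adjusted p over 18404 genes was under 0.05.

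The melanocyte lineage genes were read in the scrambled DMSO arrays, where the median over all genes on all arrays was 6.78. MITF read 10.44 and 10.46, SOX10 10.44 and 10.36, PMEL 12.61 and 12.59 and MLANA 6.17 and 6.30 on replicates A and B. Probe sets differ in brightness, so these levels check the label of the cells and are not ranked between genes. Markers of other cell types are given near the end.

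PLX4032 changed 6278 genes, 34.1% of those tested: 3193 rose (17.3%) and 3085 fell (16.8%). At least 1.5-fold rises were made by 1023 genes (5.56%) and falls by 1322 (7.18%), and at least 2-fold rises by 343 (1.86%) and falls by 526 (2.86%). At least 4-fold, 37 rose (0.201%) and 61 fell (0.331%), and at least 8-fold, 8 rose (0.0435%) and 12 fell (0.0652%). Counts within the gene lists below are to be read against these shares. For lists of dim or bright genes, the shares by level in the next paragraph apply as well. The median change over all genes was 0.051, and changes ran from -4.93 for MRGPRX4 to 6.33 for KCNJ13. Replicates correlated at 0.997 and 0.998 across genes, and arrays of different treatment at 0.980 to 0.982. On 65.3% of all genes the 2 DMSO values and the 2 PLX4032 values did not overlap, so a lack of overlap alone says little. The values did not overlap in 6277 of the 6278 called genes. Remarks below that groups were apart therefore describe the values and add nothing to the call.

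The share of genes that fell grew with the DMSO level, while rises were commonest at middle levels, so rises and falls overlapped in level. At DMSO levels of 5.761 to 7.718, 26.6% rose and 16.9% fell. At 7.718 to 9.202, 24.2% rose and 27.4% fell. The same DMSO arrays set the level and are subtracted in the change. Among the fifth of genes with the lowest DMSO level, 7.31% rose and 0.869% fell. Among the fifth with the highest level, 14% rose and 33.6% fell. A gene near the floor of the array can hardly be read as falling, and no detection calls were used, so a gene that read low may still be expressed.

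**Figure D1:**
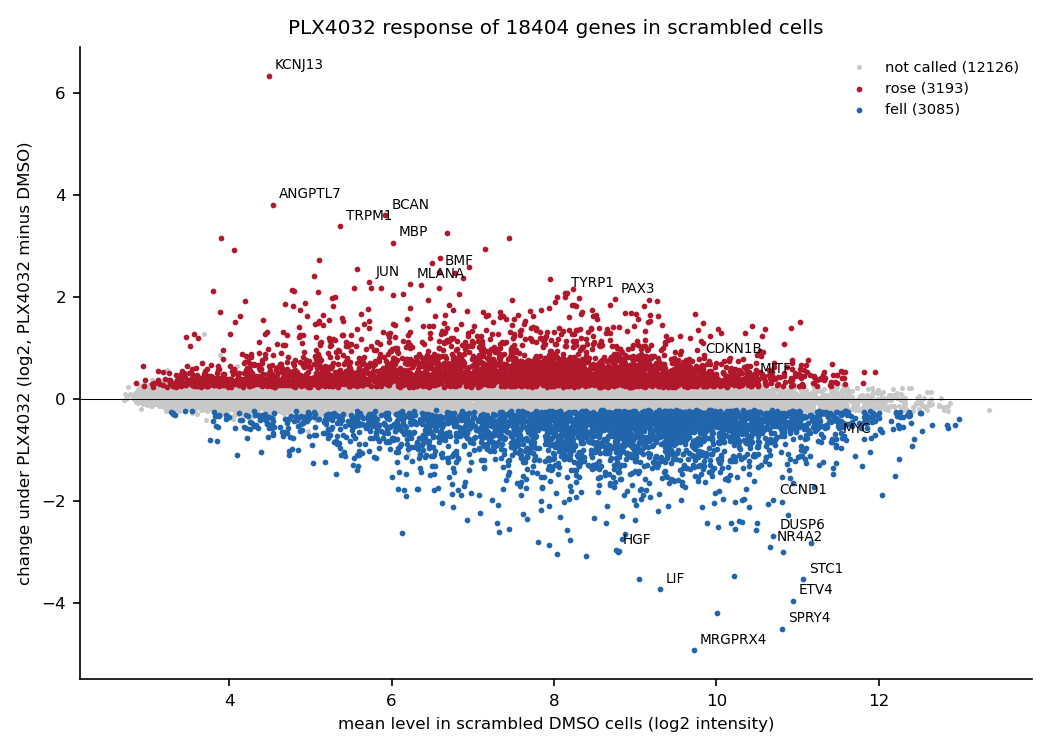
Change under PLX4032 (log2) against the mean level of the 2 scrambled DMSO arrays (log2 intensity), 1 point per gene. Red points rose, blue points fell and grey points did not pass the threshold. The largest rise, of KCNJ13, began at 4.49 and the largest fall, of MRGPRX4, at 9.72. Starting levels overlapped further down: TFAP2A-AS1, among the 20 largest rises, began at 7.95 and APLNR, among the 20 largest falls, at 7.81.

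Most ERK feedback genes fell, and the largest of these falls was that of SPRY4, a Sprouty inhibitor of receptor signalling. SPRY4 read 10.71 and 10.91 on the DMSO arrays and 6.38 and 6.23 on the PLX4032 arrays. Its change was -4.50 ± 0.10 (adjusted p = 7.63e-10). Both PLX4032 values lay far below both DMSO values. Of 19 measured feedback inhibitors, 2 rose and 12 fell, with a median change of -0.37. The ERK phosphatase gene DUSP6 (-2.68 ± 0.084) and the Sprouty genes SPRY2 (-2.43 ± 0.093) and SPRY1 (-2.34 ± 0.099) fell, while DUSP16, a phosphatase gene for the JNK and p38 kinases, rose (0.67 ± 0.082). SPRY3 (-0.089 ± 0.098) and SPRED1 (-0.095 ± 0.088) did not pass the threshold. Among the ERK feedback inhibitors, 1 rose without scrambled DMSO replicate B or scrambled PLX4032 replicate B.

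Within the cascade itself the components moved in both directions. Of 29 measured components, 9 rose and 5 fell (median 0.097). The RAS activator gene RASGRP3 rose by 1.91 ± 0.12 and the adaptor gene GAB1 by 1.37 ± 0.093. The ribosomal S6 kinase gene RPS6KA3 (-1.09 ± 0.080) and the RAS inactivator gene RASA2 (-0.74 ± 0.097) fell. BRAF itself was not used here, because no probe set named it alone.

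The PEA3 group of ETS transcription factors fell and ETS1 rose. ETV4, a PEA3 factor, read 10.96 and 10.92 on the DMSO arrays and 7.02 and 6.95 on the PLX4032 arrays and changed by -3.96 ± 0.089 (adjusted p = 7.63e-10). The groups were far apart. Its relatives ETV1 (-2.41 ± 0.095) and ETV5 (-2.03 ± 0.085) fell too, as did FLI1 (-1.05 ± 0.12), and ETS1 (1.30 ± 0.079) and ELF1 (0.75 ± 0.080) rose. In all, 2 of 21 measured ETS factors rose and 5 fell (median -0.029).

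Immediate early transcription factors split. JUN, a subunit of AP-1, read 5.79 and 5.66 on the DMSO arrays and 7.93 and 8.10 on the PLX4032 arrays and rose by 2.29 ± 0.094 (adjusted p = 4.02e-08). Every PLX4032 value of JUN was above every DMSO value. The nuclear receptor gene NR4A2 (-2.90 ± 0.078), the stress response gene IER3 (-2.28 ± 0.087) and the zinc finger genes EGR1 (-2.21 ± 0.14) and EGR3 (-2.09 ± 0.14) fell, and the AP-1 gene FOSB had a change of 0.080 ± 0.084 without passing the threshold. Of 23 measured, 6 rose and 9 fell (median -0.084).

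The largest rise was that of KCNJ13, which encodes an inward rectifier potassium channel. KCNJ13 read 4.58 and 4.40 on the DMSO arrays and 10.86 and 10.78 on the PLX4032 arrays, an 80.6-fold rise (6.33 ± 0.10, adjusted p = 8.81e-11). ANGPTL7, a secreted angiopoietin-like protein, read 4.58 and 4.50 on the DMSO arrays and 8.30 and 8.40 on the PLX4032 arrays and rose by 3.81 ± 0.12. TRPM1, a cation channel of melanocytes, read 5.42 and 5.32 on the DMSO arrays and 8.78 and 8.71 on the PLX4032 arrays and rose by 3.38 ± 0.099. In each of the 3 genes the DMSO values were near the lower part of the array's range and both PLX4032 values were above them. LRRC39 read 3.90 and 3.90 on the DMSO arrays and 7.02 and 7.10 on the PLX4032 arrays and rose by 3.16 ± 0.17. Of 21 measured inward rectifier and TRPM channel genes, 7 rose and 1 fell (median 0.15). TRPM3 (1.04 ± 0.080) and the channel kinase gene TRPM7 (0.73 ± 0.095) rose, and the cold-sensing channel gene TRPM8 fell (-1.59 ± 0.080).

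Each of KCNJ13, TRPM1 and LRRC39 has an E-box of the letters CATGTG, searched on both strands, in the 250 bases before its start site (RefSeq, GRCh38.p14). The motif, which reads CACATG on the other strand, was found in 7.03% of the 14228 promoters on hand and in 10.7% of the 271 promoters of genes that rose at least 2-fold. The last 150 bases before each start site are shown 5′ to 3′ on the gene's own strand, with the motif in capitals. These genes were picked, with their values known, from the 20 largest rises because their promoters hold the motif. Of those 20 genes 16 have a promoter on hand, and the motif was found in 3 (18.8%), while ANGPTL7, BCAN and RFTN2, of similar rank, lack it in this window. The other E-box searched, CACGTG, was in 7.86% of all promoters and 8.86% of those of genes that rose at least 2-fold. It was in 0 of the 16. The stretch of KCNJ13 lies at chr2:232776566-232776715 (minus strand), that of TRPM1 at chr15:31161161-31161310 (minus) and that of LRRC39 at chr1:100178257-100178406 (minus). A match describes these letters and is not a measurement of binding.
KCNJ13: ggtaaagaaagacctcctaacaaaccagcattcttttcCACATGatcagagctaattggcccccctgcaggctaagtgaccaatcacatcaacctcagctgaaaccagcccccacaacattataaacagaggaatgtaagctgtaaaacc
TRPM1: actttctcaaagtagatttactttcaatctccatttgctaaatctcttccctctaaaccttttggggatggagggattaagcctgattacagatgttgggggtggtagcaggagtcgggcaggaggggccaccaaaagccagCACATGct
LRRC39: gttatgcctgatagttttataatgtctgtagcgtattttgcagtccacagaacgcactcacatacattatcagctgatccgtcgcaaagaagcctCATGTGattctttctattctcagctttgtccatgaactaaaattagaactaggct

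HAS2, which makes hyaluronan, rose by 2.47 ± 0.11, and the matrix genes PRELP (2.67 ± 0.12) and MATN2 (2.37 ± 0.092) rose. GMPR, which converts GMP to IMP, rose by 2.59 ± 0.11, GALNT3, which starts O-linked glycans, by 2.55 ± 0.13, and SLC17A6, a vesicular glutamate transporter, by 2.41 ± 0.11. RFTN2 (3.25 ± 0.10), DIPK1C (2.72 ± 0.14) and the protein kinase genes CDK15 (2.91 ± 0.18) and STK32A (2.77 ± 0.10) rose as well. TFAP2A-AS1, an antisense transcript, also stood among the 20 largest (2.36 ± 0.087), and its probes could not be told apart here from overlapping transcripts.

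The largest fall was that of MRGPRX4, a G protein coupled receptor. MRGPRX4 read 9.57 and 9.87 on the DMSO arrays and 5.14 and 4.44 on the PLX4032 arrays (-4.93 ± 0.18, adjusted p = 1.77e-08). SYTL5, a synaptotagmin-like protein, read 9.97 and 10.04 on the DMSO arrays and 5.72 and 5.89 on the PLX4032 arrays and changed by -4.20 ± 0.094. Both genes were bright in DMSO and their groups were far apart. STC1, a secreted glycoprotein, read 10.97 and 11.17 on the DMSO arrays and 7.36 and 7.71 on the PLX4032 arrays (-3.54 ± 0.12). LPL, lipoprotein lipase, read 10.16 and 10.27 on the DMSO arrays and 6.76 and 6.71 on the PLX4032 arrays (-3.48 ± 0.084). GRAMD1B, which moves cholesterol between membranes, changed by -3.54 ± 0.16, and SPATS1 by -3.08 ± 0.11. CEMIP, which takes part in hyaluronan breakdown, fell by 3.01 ± 0.088 on the log2 scale, while the hyaluronan synthase gene HAS2 was among the rises. TNFRSF12A, the receptor of the cytokine TWEAK, read 10.82 and 10.82 on the DMSO arrays and 7.71 and 7.92 on the PLX4032 arrays (-3.01 ± 0.089). The small GTPase gene GEM (-2.98 ± 0.13), TM4SF1 (-2.87 ± 0.093), the peptide hormone gene UCN2 (-2.83 ± 0.081), the apelin receptor gene APLNR (-2.80 ± 0.23) and the potassium channel gene KCNG4 (-2.75 ± 0.10) were also among the 20 largest falls.

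**Figure D2:**
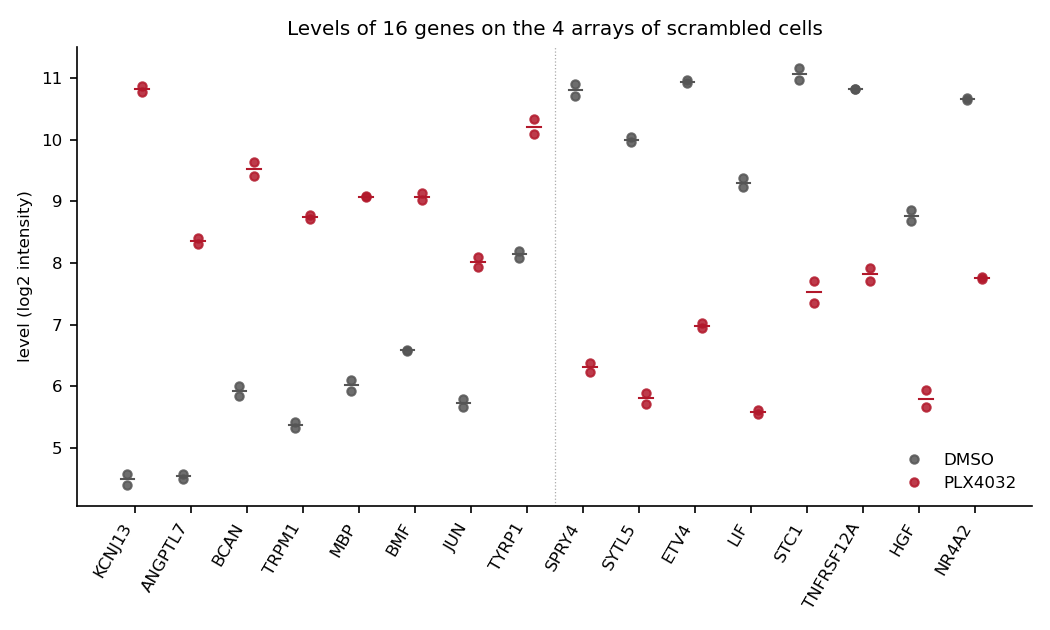
Levels (log2 intensity) of 8 genes that rose and 8 that fell on the 4 arrays of scrambled cells. Each point is an array, grey for DMSO and red for PLX4032, and the short lines are means of 2 arrays. In each gene the points of the treatments are apart, as in 6277 of the 6278 called genes.

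More genes of pigment enzymes and melanocyte antigens rose than fell. TYRP1, an enzyme of melanin synthesis, read 8.08 and 8.20 on the DMSO arrays and 10.33 and 10.09 on the PLX4032 arrays and rose by 2.07 ± 0.098 (adjusted p = 9.01e-08). MLANA, a melanosome antigen, read 6.17 and 6.30 on the DMSO arrays and 8.57 and 8.38 on the PLX4032 arrays and rose by 2.24 ± 0.095. Neither gene's groups overlapped. Of 16 measured genes, 9 rose and 2 fell (median 0.46). TSPAN10 (2.06 ± 0.15) and the chloride channel gene BEST1 (1.34 ± 0.095) rose. The melanoma surface antigens CSPG4 (-1.30 ± 0.086) and MCAM (-1.29 ± 0.077) fell, and PMEL (0.13 ± 0.10), the fibril protein of melanosomes, did not pass the threshold. MITF read 10.44 and 10.46 on the DMSO arrays and 10.88 and 10.80 on the PLX4032 arrays and rose by 0.39 ± 0.080 (adjusted p = 0.00319). Of the 4 MITF and TFE family genes measured, 2 rose and 0 fell (median 0.23), the other being the lysosome regulator TFEB (0.44 ± 0.12), whose change was 0.27 and not called without scrambled PLX4032 replicate A. Among the MITF and TFE factors, 1 rose without scrambled PLX4032 replicate A.

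Of the 13 pigment list promoters on hand, 7.69% held the E-box CACGTG, against 7.86% of all promoters. The CATGTG motif was in 8 of these 13 (61.5%, against 7.03% of all promoters). TYRP1 and TYR, the gene of tyrosinase, each hold 2 matches and are shown for that reason. They were chosen after their values were seen, and TYR itself rose by 0.75 ± 0.088 (adjusted p = 6.02e-05). The 150 bases before the start site of TYRP1 lie at chr9:12693235-12693384 and those of TYR at chr11:89177725-89177874, both on the plus strand of GRCh38.p14 (RefSeq), with the motif in capitals.
TYRP1: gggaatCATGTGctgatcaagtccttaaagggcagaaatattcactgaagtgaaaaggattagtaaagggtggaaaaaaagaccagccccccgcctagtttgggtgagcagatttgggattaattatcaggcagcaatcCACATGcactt
TYR: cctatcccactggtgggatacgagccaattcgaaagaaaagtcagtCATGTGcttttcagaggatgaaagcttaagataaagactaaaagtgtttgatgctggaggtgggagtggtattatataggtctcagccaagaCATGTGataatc

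Receptors and second messenger genes of melanocytes were split: 7 of 31 measured rose and 9 fell (median 0.013). The endothelin receptor gene EDNRB rose by 0.75 ± 0.084 and PRKACB, a catalytic subunit of protein kinase A, by 0.57 ± 0.089. The phosphodiesterase genes PDE7B (-2.43 ± 0.090) and PDE3A (-1.55 ± 0.083), whose products break down cyclic nucleotides, and the adenylyl cyclase gene ADCY7 (-0.88 ± 0.089) fell. Among the melanocyte receptors and cAMP signalling genes, 4 rose without scrambled DMSO replicate B, scrambled PLX4032 replicate A or scrambled PLX4032 replicate B.

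Transcription factors of the lineage and of epithelial to mesenchymal transition were called in both directions. PAX3, a neural crest and melanocyte factor, read 8.68 and 8.82 on the DMSO arrays and 10.74 and 10.66 on the PLX4032 arrays and rose by 1.95 ± 0.089. SNAI2 rose (1.50 ± 0.091) and its relative SNAI1 fell (-2.11 ± 0.092). ZEB2 rose (0.93 ± 0.080) and its relative ZEB1 fell (-1.53 ± 0.095). The neural crest factor FOXD3 (1.04 ± 0.11) and the inhibitor ID2 (1.35 ± 0.16) rose, and DLX2 (-1.54 ± 0.094) and POU3F2 (-1.45 ± 0.086), known as BRN2, fell. Of 29 measured, 12 rose and 9 fell (median 0.14).

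Genes known from glia and myelin were among the largest rises. BCAN, the brain proteoglycan brevican, read 6.01 and 5.84 on the DMSO arrays and 9.64 and 9.42 on the PLX4032 arrays and rose by 3.61 ± 0.11. MBP, myelin basic protein, read 5.92 and 6.11 on the DMSO arrays and 9.08 and 9.07 on the PLX4032 arrays and rose by 3.06 ± 0.090. The PLX4032 values of both were above the DMSO values. ASPA, aspartoacylase (3.15 ± 0.10), and LGI3, a secreted neuronal protein (2.94 ± 0.087), rose as well. Of 26 measured, 13 rose and 3 fell (median 0.23), the falls being led by the cadherin gene CDH19 (-1.76 ± 0.089) and the intermediate filament gene NES (-1.47 ± 0.091). GFAP, the filament of astrocytes, had a change of 0.21 ± 0.098 and did not pass the threshold.

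Of 173 microRNA genes measured, 15 rose and 2 fell (8.67% and 1.16%, against 17.3% and 16.8% of all genes). Among the fifth of all genes with the lowest DMSO level, 7.31% rose and 0.869% fell. The part of level in the microRNA shares was not tested. The array reads the transcript of the gene and not the mature microRNA. MIR21 read 6.40 and 6.53 on the DMSO arrays and 5.52 and 5.48 on the PLX4032 arrays and changed by -0.97 ± 0.15 (adjusted p = 0.000427). MIR211 read 5.47 and 5.21 on the DMSO arrays and 6.30 and 6.30 on the PLX4032 arrays and rose by 0.96 ± 0.12 (adjusted p = 8.51e-05). By RefSeq coordinates MIR211 lies inside TRPM1, which rose by 3.38 ± 0.099, and probes for the one may read transcripts of the other. These 4 microRNA genes were chosen after their values were seen. MIRLET7I rose by 0.76 ± 0.11 and MIR503 by 0.68 ± 0.085. The 5p mature sequences of these 4 are shown (RefSeq, GRCh38.p14), with the seed, bases 2 to 8, in capitals, since the seed decides which targets are paired. The 4 seeds differ from one another.
hsa-miR-21-5p: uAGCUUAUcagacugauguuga
hsa-miR-211-5p: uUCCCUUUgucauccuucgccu
hsa-miR-503-5p: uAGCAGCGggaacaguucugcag
hsa-let-7i-5p: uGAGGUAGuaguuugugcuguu

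Most genes of the G1 phase of the cell cycle fell. CCND1, cyclin D1, read 10.64 and 10.76 on the DMSO arrays and 8.74 and 8.69 on the PLX4032 arrays and changed by -1.98 ± 0.087 (adjusted p = 5.94e-08). E2F5 (-1.92 ± 0.11), E2F8 (-1.82 ± 0.086) and the phosphatase gene CDC25A (-1.52 ± 0.077) fell, and the cyclin-dependent kinase inhibitor gene CDKN1B, which encodes p27, rose (0.77 ± 0.077). CDKN1A, which encodes p21, had a change of 0.025 ± 0.096 and CDK4 one of -0.055 ± 0.085, neither past the threshold. Of 33 measured, 3 rose and 22 fell (median -0.45).

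All 13 measured kinesins of mitosis, motor proteins of the spindle, fell (median -1.29). KIF20B read 7.82 and 7.88 on the DMSO arrays and 6.13 and 6.12 on the PLX4032 arrays and changed by -1.73 ± 0.12. KIF14 (-1.69 ± 0.10), KIF15 (-1.56 ± 0.12) and CENPE (-1.49 ± 0.089) followed. Among 20 kinesins and light chains of transport, 4 rose and 1 fell (median 0.023). KIF27 rose (1.22 ± 0.18), the light chain gene KLC2 fell (-0.68 ± 0.079), and the neuronal motor genes KIF5A (0.099 ± 0.11) and KIF1A (0.12 ± 0.091) did not pass the threshold. Among the other kinesins, 2 rose without scrambled PLX4032 replicate A or scrambled PLX4032 replicate B.

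Short motifs were searched in the promoters of the mitotic kinesins. The CHR, the letters TTTGAA on either strand, was in 38.5% of the 13 promoters on hand and in 10.6% of all. The CCAAT box, the letters CCAAT, was in 76.9% against 34.4%, and an ETS site, the letters CCGGAAG, in 46.2% against 12.1%. Among the promoters of the other kinesins the CHR was in 7.14%, the CCAAT box in 21.4% and the ETS letters in 0%. No gene list had a higher share of the CCAAT box or the ETS letters than the mitotic kinesins, but some came close. The CCAAT box was in 75% of 12 promoters of serine and one-carbon enzymes and 71.4% of 21 of sterol and fatty acid synthesis. The ETS letters were in 43.8% of 16 promoters of cytosolic tRNA synthetases. For the CHR the share was higher in the fibroblast markers (2 of 2 promoters) and the endothelial markers (2 of 3, 66.7%). It was 28.6% of 14 promoters of amino acid transporters. Differences between lists in these shares were not tested. The last 100 bases before the start sites of KIF11 (chr10:92593030-92593129, plus), KIF18A (chr11:28108157-28108256, minus) and KIF23 (chr15:69414249-69414348, plus) are shown with the CHR in capitals (TTCAAA is its other strand; RefSeq, GRCh38.p14). These 3 were chosen after their values were seen and changed by -1.25 ± 0.12, -1.44 ± 0.079 and -1.31 ± 0.11.
KIF11: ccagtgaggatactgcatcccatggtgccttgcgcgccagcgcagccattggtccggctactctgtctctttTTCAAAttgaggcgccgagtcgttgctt
KIF18A: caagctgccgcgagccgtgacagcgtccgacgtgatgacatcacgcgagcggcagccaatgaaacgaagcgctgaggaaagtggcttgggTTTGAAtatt
KIF23: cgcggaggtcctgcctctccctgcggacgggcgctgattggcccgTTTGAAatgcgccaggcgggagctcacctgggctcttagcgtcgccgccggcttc

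Most genes of homologous recombination and of nucleotide synthesis fell. Of 21 measured recombination and Fanconi genes, 0 rose and 19 fell (median -0.92). The nuclease gene EXO1 (-1.64 ± 0.10) and the helicase gene BLM (-1.59 ± 0.10) fell, and FANCC (-0.28 ± 0.11) and FANCF (0.24 ± 0.089) did not pass the threshold. Of 24 nucleotide synthesis genes, 1 rose and 19 fell (median -0.68). CTPS1, which makes CTP, changed by -1.25 ± 0.087, the ribonucleotide reductase gene RRM2 by -1.24 ± 0.15 and the purine synthesis gene PPAT by -1.08 ± 0.11. ADSS1, the other way, rose by 0.97 ± 0.078. Among 15 serine and one-carbon enzymes, 1 rose and 10 fell (median -0.32), with the mitochondrial folate enzyme gene MTHFD2 at -1.23 ± 0.15 and ALDH1L2 at 0.64 ± 0.13. Among the serine and one-carbon enzymes, 6 fell without scrambled DMSO replicate B or scrambled PLX4032 replicate B.

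MYC fell and its antagonists MXD4, MXD1 and MXI1 rose. MYC read 11.45 and 11.50 on the DMSO arrays and 10.80 and 10.56 on the PLX4032 arrays and changed by -0.79 ± 0.098 (adjusted p = 8.93e-05). MXD4 (1.28 ± 0.097), MXD1 (0.68 ± 0.094) and MXI1 (0.60 ± 0.078), which compete with MYC for its partner MAX, rose, and MAX had a change of -0.047 ± 0.084 without passing the threshold. Of 13 network genes, 4 rose and 1 fell (median 0.033). Among the MYC network genes, 2 fell without scrambled DMSO replicate A.

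Many genes for making and folding proteins, or for the control of these steps, fell by small amounts. Of 19 cytosolic tRNA synthetases, 0 rose and 12 fell (median -0.39), led by FARSB (-0.73 ± 0.085) and IARS1 (-0.69 ± 0.084). Of 23 translation factors, 2 rose and 14 fell (median -0.36), led by the eIF4E-binding protein gene EIF4EBP1 (-0.90 ± 0.10), while its relative EIF4EBP2 rose (0.39 ± 0.082). Of 22 chaperones, 0 rose and 19 fell (median -0.46). The mitochondrial chaperone genes HSPD1 (-0.85 ± 0.096) and TRAP1 (-0.84 ± 0.092) and the cytosolic chaperonin gene CCT5 (-0.79 ± 0.10) fell, and the endoplasmic reticulum chaperone genes HSPA5 (0.064 ± 0.096) and HSP90B1 (-0.12 ± 0.087) did not pass the threshold. Amino acid transporters were split, 6 rising and 7 falling of 19 (median 0.069). SLC1A4 (1.63 ± 0.079), a carrier of neutral amino acids, and SLC7A8 (1.16 ± 0.11) rose, and the cystine carrier gene SLC7A11 (-1.65 ± 0.15), the arginine carrier gene SLC7A1 (-1.12 ± 0.078) and the glutamine carrier gene SLC1A5 (-1.01 ± 0.092) fell. Among the translation factors, 1 rose without scrambled DMSO replicate A, scrambled PLX4032 replicate A or scrambled PLX4032 replicate B.

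Most genes that respond to the hypoxia factor HIF fell. Of 23 measured, 2 rose and 17 fell (median -0.52). HK2, a hexokinase that starts glycolysis, read 10.37 and 10.32 on the DMSO arrays and 8.32 and 8.43 on the PLX4032 arrays (-1.97 ± 0.085). The angiogenic factor gene VEGFA (-1.87 ± 0.090), the glucose transporter gene SLC2A1 (-1.65 ± 0.092) and the glycolytic regulator gene PFKFB4 (-1.62 ± 0.093) fell, and EPAS1, which encodes HIF-2 alpha, rose (1.36 ± 0.090). Among regulators of mitochondrial biogenesis, 3 of 19 rose and 11 fell (median -0.37). The coactivator gene PPARGC1A read 8.17 and 8.20 on the DMSO arrays and 9.63 and 9.46 on the PLX4032 arrays and rose by 1.36 ± 0.16. TFB1M (-2.08 ± 0.17), TFAM (-0.77 ± 0.11) and PPRC1 (-0.93 ± 0.087), which serve mitochondrial transcription, translation and their control, fell. Among the mitochondrial biogenesis regulators, 7 fell without scrambled DMSO replicate B or scrambled PLX4032 replicate A and 1 rose without scrambled PLX4032 replicate A.

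FOXO and quiescence genes were called in 1 direction. Of 24 measured, 14 rose and 0 fell (median 0.66). SESN3, a sestrin that restrains mTORC1, read 8.07 and 8.02 on the DMSO arrays and 10.00 and 10.07 on the PLX4032 arrays and rose by 1.99 ± 0.11 (adjusted p = 3.87e-07). The autophagy gene TP53INP2 (1.98 ± 0.082), the ubiquitin ligase subunit gene FBXO32 (1.63 ± 0.089) and KLHL24 (1.41 ± 0.11) rose, and FOXO3 (0.18 ± 0.18) itself did not pass the threshold.

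In the BCL2 family the BH3-only genes BMF and PMAIP1, which promote cell death, had the largest changes, in opposite directions. BMF read 6.59 and 6.58 on the DMSO arrays and 9.02 and 9.13 on the PLX4032 arrays and rose by 2.49 ± 0.088 (adjusted p = 1.51e-08). PMAIP1, also called NOXA, read 7.45 and 7.74 on the DMSO arrays and 5.78 and 5.64 on the PLX4032 arrays and changed by -1.89 ± 0.14 (adjusted p = 2.66e-06). The arrays of each gene were apart by treatment. The survival gene BCL2A1 rose (0.88 ± 0.093), the survival genes MCL1 (-0.43 ± 0.077) and BIRC5 (-0.74 ± 0.087) fell, and BCL2L1 (0.17 ± 0.10) did not pass the threshold. Of 18 measured, 4 rose and 3 fell (median 0.16). Among p53 targets 7 of 22 rose and 3 fell (median 0.14), with ZMAT3 (1.10 ± 0.099) and TP53I3 (1.04 ± 0.086) rising and the kinase gene PLK3 (-0.97 ± 0.089) falling. Among the BCL2 family and IAPs, 2 rose without scrambled PLX4032 replicate A. Among the p53 targets, 4 rose without scrambled PLX4032 replicate A.

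Growth factors and their receptors changed in both directions. The ligand gene HGF read 8.67 and 8.86 on the DMSO arrays and 5.94 and 5.66 on the PLX4032 arrays and changed by -2.97 ± 0.12 (adjusted p = 4.29e-08), while MET, the receptor of HGF, read 10.01 and 10.04 on the DMSO arrays and 11.48 and 11.29 on the PLX4032 arrays and rose by 1.36 ± 0.092. Both were apart by treatment, in opposite directions. TGFA, a ligand of the EGF receptor, fell (-2.35 ± 0.099), as did FGF2 (-1.26 ± 0.10), and NRG3 (0.74 ± 0.11) and VEGFB (0.68 ± 0.081) rose. Of 30 ligands, 5 rose and 9 fell (median -0.022). Of 31 receptor tyrosine kinases, 3 rose and 10 fell (median -0.083). EPHA2 (-1.01 ± 0.088), AXL (-0.85 ± 0.080) and MERTK (-0.82 ± 0.081) fell, ERBB2 rose (0.42 ± 0.084), and EGFR (0.21 ± 0.099) and PDGFRB (0.20 ± 0.096) did not pass the threshold. Among the growth factor ligands, 2 rose without scrambled DMSO replicate A and 3 rose without scrambled DMSO replicate B or scrambled PLX4032 replicate A.

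More cytokine genes fell than rose. LIF, a cytokine of the interleukin 6 family, read 9.24 and 9.37 on the DMSO arrays and 5.61 and 5.54 on the PLX4032 arrays (-3.73 ± 0.093, adjusted p = 1.46e-09). CXCL8, the chemokine interleukin 8, read 7.86 and 8.21 on the DMSO arrays and 5.05 and 4.94 on the PLX4032 arrays (-3.04 ± 0.11). Both PLX4032 values were below both DMSO values in each. Of 29 measured, 2 rose and 9 fell (median -0.076). Among the chemokines and cytokines, 0 rose without scrambled PLX4032 replicate A and 1 rose without scrambled PLX4032 replicate B.

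Ligands, receptors and antagonists of developmental signalling changed in both directions. In the TGF-beta and BMP pathway 4 of 33 rose and 9 fell (median 0.029). The receptor gene TGFBR2 (1.67 ± 0.090) and the ligand gene TGFB2 (1.06 ± 0.089) rose, and the activin subunit gene INHBA (-2.29 ± 0.11) and its antagonist FST (-1.25 ± 0.091) fell. In the WNT pathway 7 of 33 rose and 12 fell (median 0.00090). WNT4 (1.08 ± 0.12) and the R-spondin receptor gene LGR4 (0.85 ± 0.081) rose, and the WNT antagonist gene DKK1 (-2.55 ± 0.13) and the coreceptor gene LRP5 (-0.96 ± 0.097) fell. In the Notch pathway 3 of 20 rose and 7 fell (median -0.026), led by the target gene HEY1 (-2.44 ± 0.096), the coactivator gene MAML3 (-1.22 ± 0.082) and the ligand gene JAG1 (-1.02 ± 0.095). Among YAP and TEAD genes 7 of 18 rose and 5 fell (median 0.035), with AMOTL2 (1.13 ± 0.096) rising and TEAD4 (-0.61 ± 0.081) falling. Among the Notch pathway genes, 1 rose without knockdown DMSO replicate A, knockdown DMSO replicate B, scrambled DMSO replicate B or scrambled PLX4032 replicate A. Among the YAP and TEAD genes, 3 fell without scrambled PLX4032 replicate A and 3 rose without scrambled PLX4032 replicate A.

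Genes of contact with the matrix were split by family. Of 24 integrins, 3 rose and 11 fell (median -0.17). The collagen receptor subunit gene ITGA10 (-2.61 ± 0.094), ITGB3 (-1.31 ± 0.090), ITGA3 (-1.23 ± 0.093) and ITGB8 (-1.15 ± 0.082) fell, and ITGB7 (0.81 ± 0.093) and ITGA9 (0.63 ± 0.10) rose. Of 36 extracellular proteases and inhibitors, 12 rose and 8 fell (median 0.10). MMP2 (1.34 ± 0.079), its membrane-bound activator MMP14 (0.95 ± 0.080) and the inhibitor TIMP2 (0.68 ± 0.087) rose, and ADAMTS1 (-2.77 ± 0.10), the collagenase gene MMP1 (-1.56 ± 0.095) and the urokinase receptor gene PLAUR (-1.35 ± 0.093) fell. Of 34 semaphorins, plexins and ephrins, 13 rose and 10 fell (median 0.12). SEMA6A (1.81 ± 0.12) and the receptor genes PLXNB1 (1.72 ± 0.079), PLXNC1 (1.18 ± 0.084) and PLXNA2 (1.07 ± 0.085) rose, and the repellent ligand genes SEMA3A (-1.60 ± 0.096) and SEMA3F (-1.08 ± 0.093) fell.

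The remaining programmes changed in both directions. Among antigen presentation genes and checkpoint ligands 8 of 25 rose and 5 fell (median 0.13). NT5E, which makes adenosine outside the cell, fell by 2.44 ± 0.080, and the class II gene HLA-DPA1 rose by 0.87 ± 0.16, with the limit that probes for HLA genes can read their relatives. HLA-DMA (0.66 ± 0.11) and TAPBP (0.45 ± 0.098) count among the rises, but other probe sets of theirs were called in the opposite direction, and the means of all their probe sets gave differences of -0.36 and -0.20. Of 23 sterol and fatty acid synthesis genes, 5 rose and 8 fell (median -0.075), with DHCR7 (-0.91 ± 0.094) and FASN (-0.58 ± 0.086) falling. Of 19 clock genes, 8 rose and 4 fell (median 0.17), with BHLHE41 (1.19 ± 0.089) and PER3 (0.99 ± 0.092) rising and NPAS2 (-1.14 ± 0.089) and CLOCK (-0.53 ± 0.094) falling. Of 34 chromatin regulators, 11 rose and 9 fell (median 0.10). The maintenance methylation genes UHRF1 (-1.29 ± 0.084) and DNMT1 (-0.71 ± 0.076) and the H3K27 methyltransferase gene EZH2 (-0.62 ± 0.093) fell, and the deacetylase genes SIRT2 (0.78 ± 0.091) and HDAC6 (0.65 ± 0.087) rose. Among the antigen presentation and checkpoint ligands, 3 fell without scrambled DMSO replicate B, scrambled PLX4032 replicate A or scrambled PLX4032 replicate B and 4 rose without scrambled PLX4032 replicate A. Among the sterol and fatty acid synthesis genes, 4 fell without scrambled DMSO replicate A or scrambled PLX4032 replicate B, 5 fell without scrambled DMSO replicate B, 0 rose without scrambled PLX4032 replicate A and 3 rose without scrambled DMSO replicate B. Among the chromatin regulators, 7 rose without scrambled PLX4032 replicate A.

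**Figure D3:**
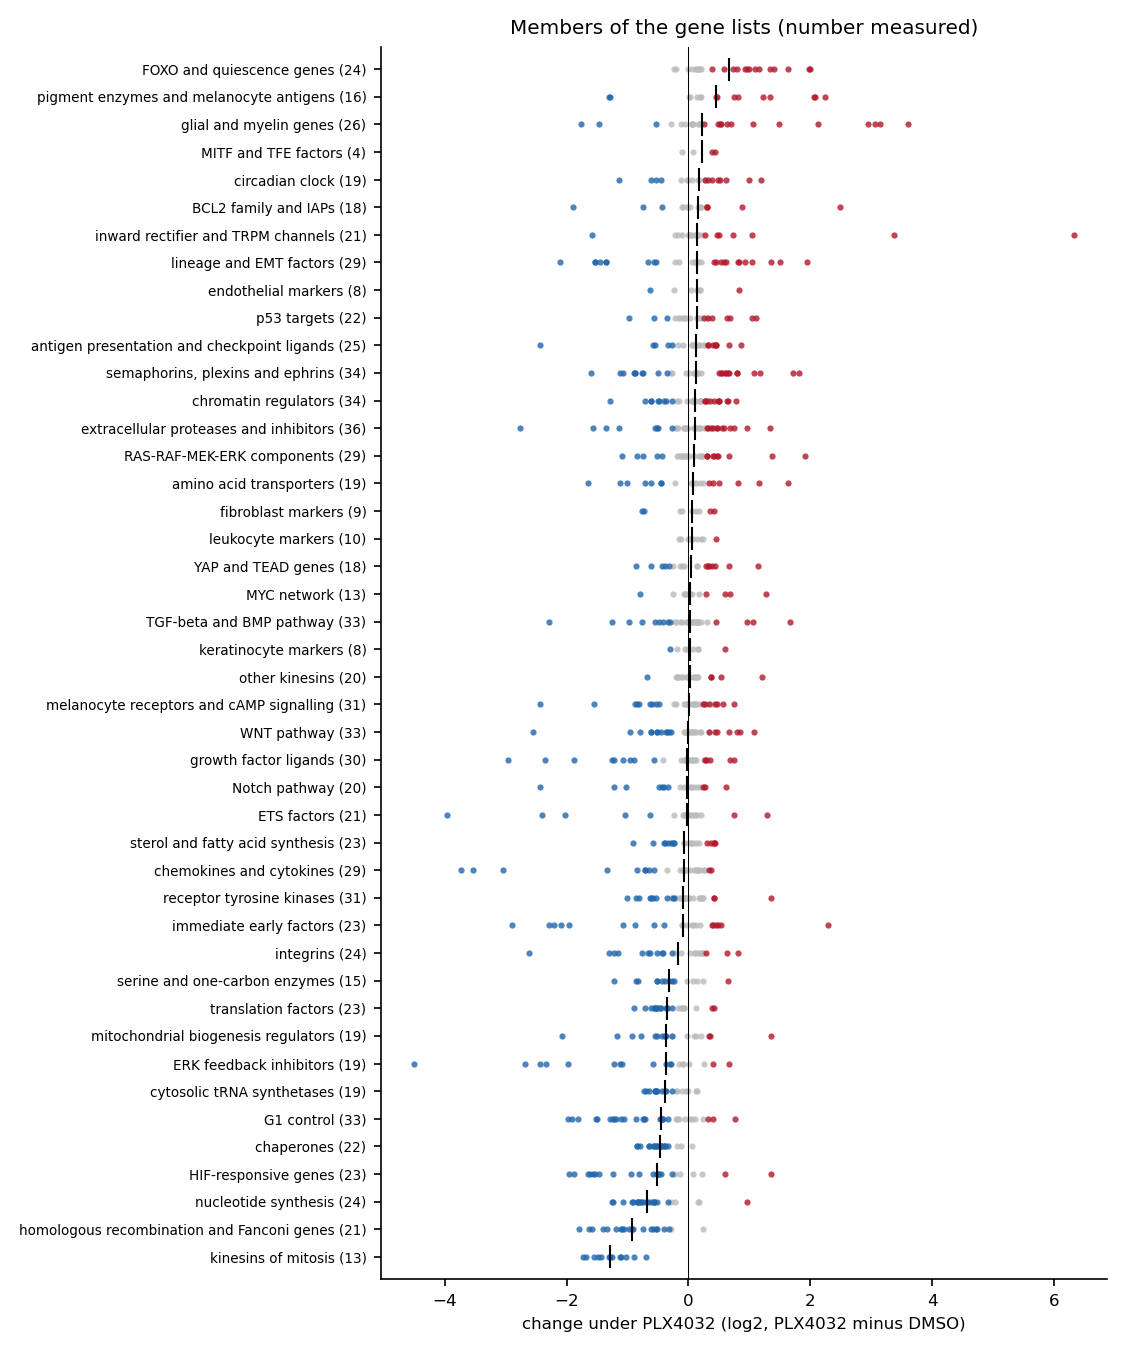
Change under PLX4032 (log2) of every measured member of the 44 gene lists, with the number measured in brackets and lists ordered by median. Red points rose, blue points fell, grey points did not pass the threshold, and black lines are medians. The mitotic kinesins (median -1.29) are lowest and the FOXO and quiescence genes (median 0.66) highest.

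Markers of cell types that a culture of melanoma cells should lack were called at 10% for leukocytes, 44.4% for fibroblasts, 25% for keratinocytes and 25% for endothelium, against 34.1% of all genes. Of 10 leukocyte markers 1 rose and 0 fell (median 0.060), the rise being that of CD68 (0.46 ± 0.097). Of 9 fibroblast markers 2 rose and 2 fell (median 0.065), led by COL1A2 (-0.77 ± 0.083) and LUM (0.42 ± 0.085). Of 8 keratinocyte markers 1 rose and 1 fell (median 0.027), and of 8 endothelial markers 1 rose and 1 fell (median 0.14), with CDH1 (0.60 ± 0.12) and EMCN (0.82 ± 0.13) rising. The mean level of a marker list over its members ran, on the DMSO and the PLX4032 arrays, from 4.97 to 5.05 and 5.05 to 5.16 for leukocytes, 5.85 to 5.88 and 5.79 to 5.81 for fibroblasts, 4.55 to 4.55 and 4.60 to 4.61 for keratinocytes and 5.11 to 5.13 and 5.18 to 5.22 for endothelium. The part of other cells in the response was not tested. In bulk RNA, fewer cells of a kind and less RNA per cell cannot be told apart. Among the leukocyte markers, 3 rose without scrambled PLX4032 replicate A. Among the fibroblast markers, 1 fell without scrambled PLX4032 replicate B and 1 rose without scrambled PLX4032 replicate B. Among the keratinocyte markers, 0 fell without scrambled DMSO replicate A, scrambled PLX4032 replicate A or scrambled PLX4032 replicate B and 2 fell without scrambled DMSO replicate B. Among the endothelial markers, 3 rose without scrambled DMSO replicate A.

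The 4 arrays of MITF knockdown cells gave a second reading of the inhibitor in the same line, with no array shared. Of 3193 rises in scrambled cells, 1914 also rose in knockdown cells (59.9% of the scrambled rises and 56% of the 3418 knockdown rises). Of 3085 falls, 1944 also fell (63% of the scrambled falls and 69.7% of the 2788 knockdown falls). In knockdown cells 18.6% of all genes rose and 15.1% fell. A further 70 genes rose in scrambled and fell in knockdown cells, and 135 did the reverse. All 37 rises and all 61 falls of at least 4-fold had the same sign in knockdown cells, and 32 and 59 of them were called there.

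The size of the response differed with the hairpin for 2176 genes, 11.8% of those tested (893 with the higher change in scrambled cells, 4.85%, and 1283 with the lower, 6.97%). Without knockdown DMSO replicate A the count was 1427, without knockdown DMSO replicate B 1278 and without scrambled PLX4032 replicate A 1431. Of the 37 rises of at least 4-fold, the difference was called for 30, and the change was smaller in knockdown cells for 24. Of the 61 such falls it was called for 40, and the change was smaller for 24. These genes were chosen for a large change in scrambled cells, which by itself favours a smaller change elsewhere.

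Among genes that changed in scrambled cells, TRPM1 had one of the largest differences between hairpins. TRPM1 read 5.05 and 4.89 with DMSO and 5.43 and 5.21 with PLX4032 in knockdown cells, a change of 0.35 ± 0.099 against 3.38 ± 0.099 in scrambled cells (difference 3.03 ± 0.14, adjusted p = 1.11e-06). All 4 knockdown values lay below both scrambled PLX4032 values. CRLF2, a cytokine receptor, read 3.98 and 3.71 on the scrambled DMSO arrays, among the fifth of genes with the lowest level, where a fall can hardly be read, and 7.64 and 7.47 on the knockdown DMSO arrays. Its changes were -0.53 ± 0.14 and -4.03 ± 0.14, so that the difference of 3.50 ± 0.19 was measured from unequal starting levels. The scrambled change of CRLF2 was -0.39 without scrambled DMSO replicate A and -0.42 without scrambled PLX4032 replicate B, neither called. For the cystatin gene CST1 the changes were 1.26 ± 0.27 and -1.54 ± 0.27 (difference 2.80 ± 0.38), and for SLC45A2, a melanosome transporter, 0.82 ± 0.11 and -1.67 ± 0.11 (difference 2.49 ± 0.15). MET changed by 1.36 ± 0.092 in scrambled and -1.12 ± 0.092 in knockdown cells (difference 2.48 ± 0.13). In the other direction stood UBD, a ubiquitin-like protein, with -0.56 ± 0.20 and 2.93 ± 0.20 (difference -3.49 ± 0.28). The scrambled change of UBD was -0.56 without knockdown DMSO replicate A, -0.56 without knockdown DMSO replicate B, -0.21 without scrambled DMSO replicate A and -0.36 without scrambled PLX4032 replicate A, and was called in none of these. The collagen receptor subunit gene ITGA2 changed by -0.42 ± 0.081 and 2.47 ± 0.081 (difference -2.89 ± 0.11), and PODXL, the gene of the sialomucin podocalyxin, by -1.58 ± 0.078 and 0.94 ± 0.078 (difference -2.52 ± 0.11). SPATS1, HEY1 and TNFRSF12A fell in scrambled cells, with knockdown changes of -0.26 ± 0.11, -0.11 ± 0.096 and -0.70 ± 0.089. SPATS1 started from 8.26 and 8.54 on the scrambled and 4.95 and 4.84 on the knockdown DMSO arrays, which left little room to fall in knockdown cells. HEY1 started from 10.19 and 10.18 on the scrambled and 8.09 and 7.98 on the knockdown DMSO arrays. For TNFRSF12A these values were 10.82 and 10.82 and, in knockdown cells, 11.35 and 11.39. The starting levels of the other genes, as means of scrambled and of knockdown DMSO arrays, were 4.91 and 9.87 for CST1, 8.70 and 8.43 for SLC45A2, 10.02 and 9.12 for MET, 5.27 and 4.99 for UBD, 8.25 and 8.43 for ITGA2 and 9.44 and 9.83 for PODXL. The part of the starting level in these differences was not tested.

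Other leading genes responded with both hairpins. KCNJ13 changed by 5.24 ± 0.10, ANGPTL7 by 5.82 ± 0.12, SPRY4 by -5.30 ± 0.10, ETV4 by -5.15 ± 0.089, JUN by 3.02 ± 0.094 and TYRP1 by 3.48 ± 0.098 in knockdown cells. The size still differed, and the difference between hairpins was called for each of these genes. It was 1.09 for KCNJ13, -2.01 for ANGPTL7, 0.80 for SPRY4, 1.196 for ETV4, -0.73 for JUN and -1.41 for TYRP1. The mitotic kinesins fell there in 12 of 13 cases (median -0.88) and FOXO and quiescence genes rose in 18 of 24 (median 0.65). Of the pigment genes 7 rose and 4 fell in knockdown cells (median 0.20), and the difference between hairpins was called for 10 of 16.

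**Figure D4:**
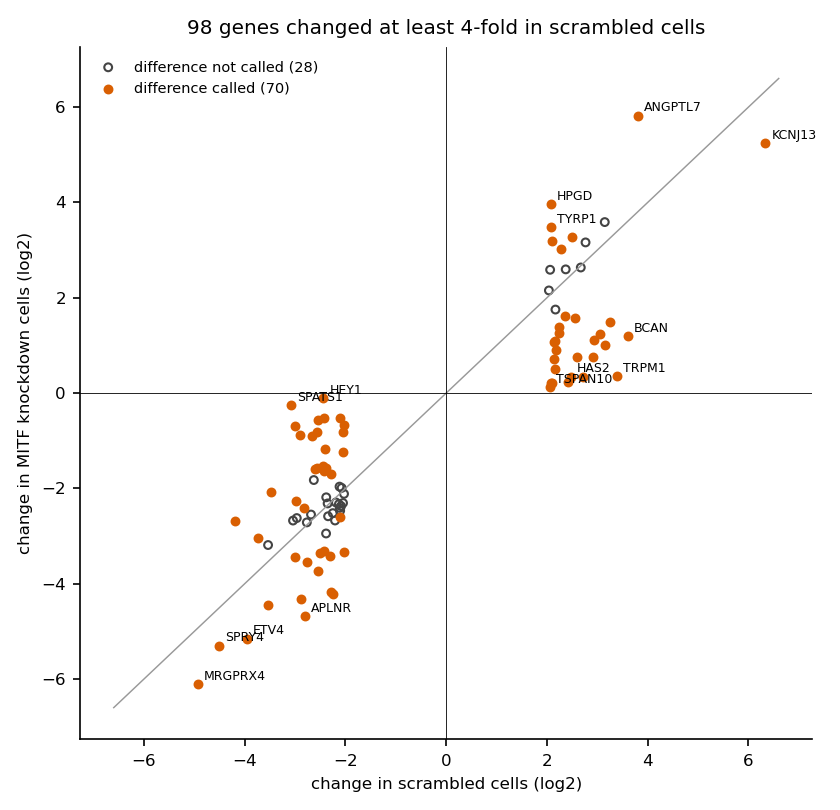
Change under PLX4032 (log2) in MITF knockdown cells against that in scrambled cells for the 98 genes called and changed at least 4-fold in scrambled cells. Filled points have a called difference between hairpins, open points do not, and the line marks equal changes. All 98 points have the same sign on both axes.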

How the data were processed

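RNA of 8 samples was read on Affymetrix Human Gene 1.0 ST arrays. The authors deposited log2 intensities of probe sets, made with RMA per the submitters' processing notes, with no version given. RMA gives all arrays 1 distribution, so a common shift of most genes is lost, and changes of dim or very bright probe sets are understated. The annotation build of the authors is not given in the sources used here.

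Of 32321 probe sets, 19158 carried exactly 1 symbol in GEO's platform annotation, and 19128 of these matched a RefSeq gene record. For 637 genes with several, the probe set with the highest mean over all arrays was taken, which left 18404 genes with no filter on level. Probe sets of 4 genes were called in opposite directions: HGH1, HLA-DMA, MICAL3 and TAPBP. Probes of near-identical genes can read one another.

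A mean per group over 8 arrays was fitted with lmFit and eBayes (limma 3.58.1, R 4.3.3; 4 residual and 6.73 prior degrees of freedom) and tested with two-sided p-values, Benjamini-Hochberg adjusted across the 18404 genes, at a threshold of 0.05. The median SE was 0.0939 for a change in scrambled cells and 0.133 for the difference between hairpins, a precision set by the small number of arrays. The procedure was tested on simulated data. There were 44 gene lists with 1041 entries (971 measured, on 955 different genes). Lists are described by counts and medians, with no test. The members, lists and named genes were chosen with earlier results of these data known.

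Genes are named where they are among the 20 largest called rises or falls with no overlap, the largest called or uncalled members of a list, the largest differences between hairpins among genes called in scrambled cells, or one of 9 fixed genes, of which BRAF was not used here. Not every such gene is named. Differences of CCN2 (2.78), SOCS6 (2.52), SYNE3 (-2.88) and HTR2B (-2.64) are larger than some described above and were left out. KIF11, KIF18A, KIF23, SOX10, TYR, ZEB2 and the microRNA genes fall outside the rule for named genes and were chosen after their values were seen. Promoters are the 250 bases before the start site in RefSeq (GRCh38.p14), on hand for 14228 genes. Alternatives were the scrambled arrays alone, other eBayes settings, array weights, repeated quantile normalization, median centring, the dimmest 40% of genes left out, the mean of all probe sets, a test against 1.2-fold, a replicate block and each array left out.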

Additional observations from a re-analysis of the deposited data

Results flagged for a closer look

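For the genes below the change under PLX4032 differed between scrambled and MITF knockdown cells by the interaction term of the limma fit, over all 18404 genes (n = 2 arrays per group). Values are the scrambled change minus the knockdown change, on the log2 scale, and their causes were not tested. Such a difference was called for 11.8% of all genes, and the named genes were chosen for their change in scrambled cells or in the difference, so their number says nothing of itself. The call was lost in at least 1 fit without an array for 31 of the 116 genes, GRAMD1B having the largest difference among those. Starting levels differed between hairpins for some of these genes: CRLF2 read 3.98 and 3.71 on the scrambled and 7.64 and 7.47 on the knockdown DMSO arrays, and SPATS1 8.26 and 8.54 and 4.95 and 4.84. A gene that starts near the floor of the array can hardly be read as falling.

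Genes that rose in scrambled cells and had the higher change there were TRPM1 (3.03), CST1 (2.80), SLC45A2 (2.49), MET (2.48), BCAN (2.41), DIPK1C (2.38), SLC17A6 (2.18), CDK15 (2.16), LRRC39 (2.15), HAS2 (2.12), TSPAN10 (1.93) and ITGA9 (1.92). With smaller differences came GMPR (1.84), BCL2A1 (1.84), MBP (1.83), LGI3 (1.82), NRG3 (1.79), RFTN2 (1.76), RASGRP3 (1.66), FBXO32 (1.44), BHLHE41 (1.29), PLXNA2 (1.09), KCNJ13 (1.09) and GALNT3 (0.98). The next were TGFB2 (0.88), MLANA (0.86), EMCN (0.79), ITGB7 (0.79), TFAP2A-AS1 (0.74), MXD4 (0.63), MIR211 (0.59), HLA-DMA (0.53), SNAI2 (0.52), CDKN1B (0.52), CD68 (0.51) and VEGFB (0.48). Last came SLC1A4 (0.44), TYR (0.44) and MMP2 (0.39).

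Genes that fell in scrambled cells and had the higher change there were CRLF2 (3.50), APLNR (1.88), INHBA (1.88), TM4SF1 (1.45), JAG1 (1.44), ETV5 (1.30), ETV4 (1.196), MRGPRX4 (1.18), EIF4EBP1 (1.13), MYC (0.96), RASA2 (0.92) and DHCR7 (0.90). With smaller differences came GRAMD1B (0.90), SPRY4 (0.80), KCNG4 (0.78), CSPG4 (0.74), FASN (0.74), NPAS2 (0.72), SLC7A1 (0.69), ZEB1 (0.60), SEMA3A (0.52), HK2 (0.50), SNAI1 (0.49) and PDE3A (0.47). The next were PFKFB4 (0.45) and CEMIP (0.44).

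Genes that rose in scrambled cells and had the lower change there were ANGPTL7 (-2.01), BEST1 (-1.83), MIR503 (-1.68), FOXD3 (-1.62), TYRP1 (-1.41), ETS1 (-0.95), AMOTL2 (-0.78), BMF (-0.78), JUN (-0.73), SEMA6A (-0.72), ZEB2 (-0.72) and LGR4 (-0.67). With smaller differences came GAB1 (-0.55), SIRT2 (-0.52), TP53INP2 (-0.46) and DUSP16 (-0.42).

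Genes that fell in scrambled cells and had the lower change there were UBD (-3.49), ITGA2 (-2.89), SPATS1 (-2.82), PODXL (-2.52), HEY1 (-2.34), TNFRSF12A (-2.31), NR4A2 (-2.03), DKK1 (-1.98), PDE7B (-1.91), CDH19 (-1.68), MIR21 (-1.61) and SYTL5 (-1.51). With smaller differences came LPL (-1.40), EPHA2 (-1.39), ETV1 (-1.25), VEGFA (-1.21), TRPM8 (-1.15), MERTK (-1.11), ITGB8 (-1.11), DLX2 (-1.08), ITGA10 (-1.02), E2F8 (-0.98), POU3F2 (-0.91) and NT5E (-0.90). The next were SPRY2 (-0.78), GEM (-0.71), MCAM (-0.70), LIF (-0.70), E2F5 (-0.69), CENPE (-0.66), IER3 (-0.58), KIF14 (-0.51), COL1A2 (-0.49), UCN2 (-0.42) and TEAD4 (-0.39).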

How the results depend on the processing

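With the replicate letter as a replicate block, 6295 genes were called in scrambled cells and 2176 differed between hairpins, against 6278 and 2176. The letters were not taken as pairs: deviations of same-letter arrays correlated from -0.094 to 0.329 between groups, and at -0.078 between scrambled DMSO and scrambled PLX4032 arrays. Tested against a change of 1.2-fold, 2641 genes were called (1143 rises and 1498 falls), and the difference between hairpins was called for 841. That test asks for a larger change by construction. Over the other settings that keep all arrays, each of these counts stayed within 1.5 times its main value. Leaving out each array in turn gave 4738 to 6441 called genes, 2232 to 3329 rises, 2269 to 3112 falls, 318 to 370 rises and 449 to 612 falls of at least 2-fold, and 1278 to 2132 differences between hairpins. Such fits leave a group with a lone array, assumed to vary like the others. List medians were taken to have moved where they shifted by more than 1 SD between replicates (that of the list's mean level, for a difference of 2 arrays). Without the dimmest 40% of genes the medians so moved were -0.48 for the ERK feedback inhibitors, -0.021 for the RAS-RAF-MEK-ERK components, -0.20 for the receptor tyrosine kinases, -0.50 for the growth factor ligands, 0.74 for the FOXO and quiescence genes and -0.044 for the amino acid transporters. Others there were -0.031 for the other kinesins, 0.39 for the MITF and TFE factors, 0.61 for the pigment enzymes and melanocyte antigens, -0.070 for the melanocyte receptors and cAMP signalling, 0.50 for the glial and myelin genes and 0.73 for the inward rectifier and TRPM channels. Others there were -0.57 for the chemokines and cytokines, -0.28 for the WNT pathway, -0.087 for the Notch pathway, 0.14 for the YAP and TEAD genes, -0.52 for the integrins and -0.014 for the extracellular proteases and inhibitors. Others there were 0.30 for the leukocyte markers, -0.27 for the fibroblast markers, -0.30 for the keratinocyte markers and -0.22 for the endothelial markers. Of these the sign turned for the RAS-RAF-MEK-ERK components, amino acid transporters, other kinesins, melanocyte receptors and cAMP signalling, WNT pathway, extracellular proteases and inhibitors, fibroblast markers, keratinocyte markers and endothelial markers. Under repeated quantile normalization the medians so moved were 0.054 for the RAS-RAF-MEK-ERK components, -0.42 for the G1 control, -0.24 for the serine and one-carbon enzymes, 0.53 for the pigment enzymes and melanocyte antigens, 0.070 for the inward rectifier and TRPM channels and -0.15 for the chemokines and cytokines. Others there were -0.0035 for the TGF-beta and BMP pathway, -0.043 for the WNT pathway, 0.054 for the extracellular proteases and inhibitors, 0.0034 for the sterol and fatty acid synthesis, -0.45 for the HIF-responsive genes and -0.022 for the leukocyte markers. Others there were -0.020 for the fibroblast markers, -0.054 for the keratinocyte markers and 0.063 for the endothelial markers. Of these the sign turned for the TGF-beta and BMP pathway, WNT pathway, sterol and fatty acid synthesis, leukocyte markers, fibroblast markers and keratinocyte markers. With the mean of all probe sets the median so moved was -0.030 for the WNT pathway. Of these the sign turned for the WNT pathway. With each array left out in turn, medians that moved for at least 1 array ran from 0.037 to 0.19 for the RAS-RAF-MEK-ERK components, -0.084 to -0.028 for the immediate early factors, -0.15 to -0.083 for the receptor tyrosine kinases, -0.50 to -0.42 for the G1 control and 0.59 to 0.73 for the FOXO and quiescence genes. Further such medians ran from 0.097 to 0.21 for the BCL2 family and IAPs, 0.012 to 0.088 for the MYC network, -0.36 to -0.22 for the serine and one-carbon enzymes, -0.47 to -0.30 for the cytosolic tRNA synthetases and -0.025 to 0.054 for the other kinesins. Further such medians ran from 0.13 to 0.29 for the MITF and TFE factors, 0.23 to 0.38 for the glial and myelin genes, -0.027 to 0.057 for the TGF-beta and BMP pathway, -0.083 to 0.038 for the WNT pathway and -0.0060 to 0.079 for the YAP and TEAD genes. Further such medians ran from -0.22 to -0.11 for the integrins, 0.065 to 0.10 for the extracellular proteases and inhibitors, -0.14 to 0.0060 for the sterol and fatty acid synthesis, -0.62 to -0.50 for the HIF-responsive genes and -0.48 to -0.27 for the mitochondrial biogenesis regulators. Further such medians ran from 0.13 to 0.26 for the circadian clock, -0.015 to 0.16 for the leukocyte markers, -0.099 to 0.17 for the fibroblast markers and 0.033 to 0.15 for the endothelial markers. Over all lists, leaving out an array turned the sign of the median of the ETS factors (0.0093 without scrambled DMSO replicate B), the other kinesins (-0.020 without scrambled DMSO replicate B and -0.025 without scrambled PLX4032 replicate B), the melanocyte receptors and cAMP signalling (-0.00029 without scrambled DMSO replicate A and -0.0032 without scrambled DMSO replicate B) and the TGF-beta and BMP pathway (-0.0012 without scrambled DMSO replicate A, -0.027 without scrambled DMSO replicate B and -0.0025 without scrambled PLX4032 replicate B). It also turned that of the WNT pathway (-0.083 without scrambled DMSO replicate B and -0.0053 without scrambled PLX4032 replicate A), the Notch pathway (0.0027 without scrambled PLX4032 replicate B), the YAP and TEAD genes (-0.0060 without scrambled PLX4032 replicate A) and the sterol and fatty acid synthesis (0.0060 without scrambled PLX4032 replicate B). It also turned that of the leukocyte markers (-0.015 without scrambled DMSO replicate B and -0.0011 without scrambled PLX4032 replicate B) and the fibroblast markers (-0.099 without scrambled DMSO replicate B). Named values that changed sign were -0.36 for the change of HLA-DMA (mean of all probe sets), -0.22 for the difference between hairpins of HLA-DMA (mean of all probe sets) and -0.20 for the change of TAPBP (mean of all probe sets). Of the named genes' changes, 2262 values kept direction and call under settings with all arrays, 18 lost the call and 4 gained one, and with an array left out these numbers were 1838, 7 and 3. Of their differences between hairpins, 55 and 159 values lost the call. The cause of these shifts was not tested. Signal over background is unknown without detection calls.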

Other observations

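Small nucleolar RNA genes, which guide the chemical modification of ribosomal RNA, were in no list. Of 175 measured, 11 rose and 36 fell under PLX4032 in scrambled cells (6.29% and 20.6%, against 17.3% and 16.8% of all genes), with a median change of -0.038. Long noncoding RNA genes had the other balance: of 626, 97 rose and 30 fell (15.5% and 4.79%). Of 391 transcribed pseudogenes, 47 rose and 26 fell (12% and 6.65%). Over all genes these shares varied with level. In the fifth with the lowest scrambled DMSO level 7.31% rose and 0.869% fell. At levels of 4.263 to 5.761, 14.7% rose and 5% fell, and at 5.761 to 7.718, 26.6% and 16.9%. The levels of these RNA classes were not set against those of all genes. The part of level in the shares of these RNA classes was not tested. Most snoRNA genes lie within other genes, and the array does not tell a snoRNA from the transcript that holds it.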
